A study of Mus musculus with 6 samples.

Results

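The genes described here are 36 autophagy and lysosome genes, chosen by name from a fixed list, and all 36 were found among the 55487 genes of a mouse gene expression table. They were read in 6 bulk RNA libraries of cells labelled long-term hematopoietic stem cells, sorted from bone marrow as Lineage-, Sca-1+, c-Kit+, Flk2- and CD34-. The mice were wild type and had not been irradiated. The animals behind 3 libraries had received saline, and those behind the other 3 had received carnosine, which is beta-alanine joined to histidine. Dose, length of treatment, age, sex and animal numbers are not stated. No label ties each library to its own mouse, so the p-values may measure technical spread only.

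Autophagy delivers parts of the cytoplasm to the lysosome. The ULK1 kinase complex starts the process, the Beclin 1 complex marks the forming membrane with a lipid, and a conjugation system attaches small ATG8 proteins, the LC3 and GABARAP families, to it. Receptors tie cargo to the ATG8 proteins, and after fusion the acid hydrolases of the lysosome degrade the cargo. TFEB, TFE3 and MITF are related transcription factors that bind a short promoter element, called CLEAR, near many lysosomal genes. In hematopoietic stem cells, autophagy is known for removing active mitochondria and keeping the cells in a low metabolic state.

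Depth was 10304539 to 13251332 counts per library, and the lowest count of any member in any library was 59, for Mitf. Replicates of a group differed by more than sampling noise in every pair, so none was treated as a repeated deposit. Several marker sets were checked against the label. Kit, the receptor used in the sort, stood at 546 CPM (counts scaled to library size) in saline and 530 CPM in carnosine on average, and Slamf1, a stem cell surface marker, at 4.28 and 3.64 CPM. RNAs of markers that the sort excludes were also abundant: Cd34 averaged 857 CPM in saline and 861 CPM in carnosine, and Flt3, which encodes Flk2, averaged 818 and 775 CPM. The RNA levels of these excluded markers therefore go against the label, and the cells are named by their label only.

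Across the 15298 genes with enough counts to be tested, edgeR's quasi-likelihood test called 9.51% higher and 8.39% lower in carnosine at an adjusted p under 0.05, which is 17.9% in both directions. All 36 members were tested. A member that missed this threshold is not shown to be unchanged. Counts at an unadjusted p under 0.05 are also given below for some roles and lists. The share of all genes at that looser cut is not given here, and it is at least the 17.9% above. Those counts are therefore not a result about the roles or lists. Of the 36, 1 rose, the lysosomal membrane protein gene Lamp1, and 5 fell: Sqstm1, Map1lc3b, Ulk1, Atg16l1 and Mcoln1. Together these are 16.7% of the members, a share near that of all genes, so the number of calls is not a result about the members. By direction, 2.78% of the members rose and 13.9% fell. The median log2 fold change was -0.04 over the members and 0.00 over all genes tested, with 14 members above 0 and 22 below. Individual changes were small, from -0.36 to 0.30 on the log2 scale.

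**Figure D1:**
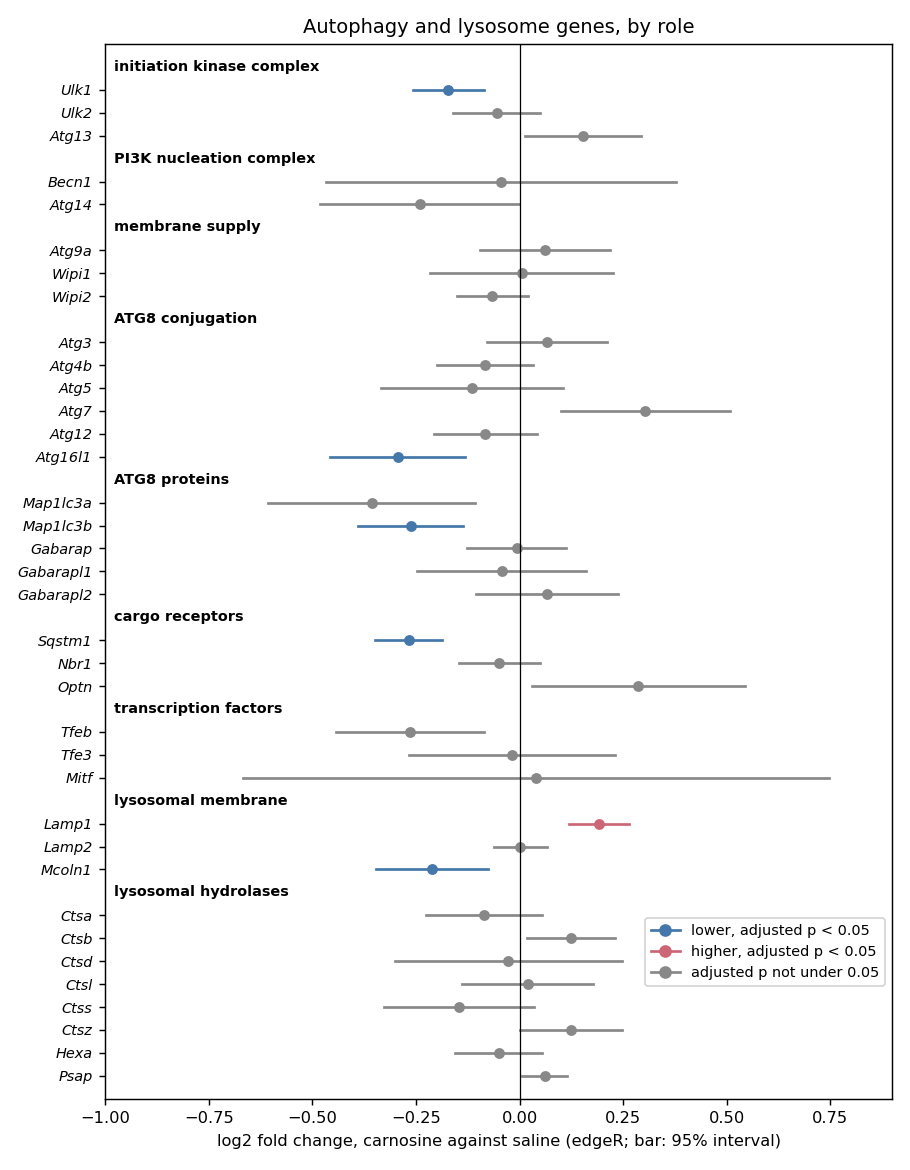
Log2 fold change of each of the 36 members, carnosine against saline, grouped by role. Points are edgeR estimates from 3 libraries a group, bars are 95% intervals, blue marks the 5 members that fell, red the 1 that rose, and grey those that did not pass an adjusted p of 0.05.

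The libraries of the 2 groups did not overlap for 15 members. Of these, 7 were higher in every carnosine library and 8 were lower. Over all genes tested, 19.7% did not overlap with carnosine higher and 19.0% with carnosine lower, 38.7% in all, beside 41.7% of the members. These shares too are close to each other. In bulk RNA, fewer cells of a type and less RNA per cell cannot be told apart, and several marker lists moved with the treatment. The summed level of 14 neutrophil markers was 958 to 964 CPM in the saline libraries and 600.5 to 632 CPM in the carnosine libraries, and 4 of the 8 tested fell. Those were Mpo (516 to 306 CPM), Csf3r (240.0 to 158 CPM), Elane (33.9 to 22.1 CPM) and Ctsg (54.7 to 37.1 CPM), while Prtn3 averaged 112 and 87.2 CPM without passing. The genes of mature neutrophils in that list were low in both groups, with S100a8 at 0.947 and 1.06 CPM, S100a9 at 1.11 and 1.47 CPM, Ltf at 1.73 and 3.58 CPM, and Camp, Ngp and Ly6g at or under 0.995 CPM in every library. The 15 macrophage and monocyte markers summed to 211 to 224 CPM in saline and 184 to 201 CPM in carnosine. Of the 11 tested, 1 fell, Csf1r, from 25.8 to 11.9 CPM. Lyz2, the largest part of the sum, averaged 139.9 CPM in saline and 131 CPM in carnosine without passing. Cd68 averaged 23.2 and 18.4 CPM and Vcam1 4.62 and 6.95 CPM, also without passing. Adgre1, Marco, Mertk and Fcgr1 stayed under 1.35 CPM in every library. B and plasma cell markers, 13 in all, summed to 237 to 319 CPM in saline and 439 to 695 CPM in carnosine, with 3 higher and 3 lower of 12 tested. The 11 erythroid markers summed to 393 to 401 CPM in saline and 521 to 549 CPM in carnosine, and 7 rose. T and NK cell markers went from 137 to 142 CPM in saline to 127 to 128 CPM in carnosine, with 1 of 5 tested lower. Megakaryocyte and platelet markers summed to 95.4 to 99.7 CPM in saline and 92.4 to 97.3 CPM in carnosine. Of the 6 tested, 1 fell, Pf4, from 4.32 to 2.27 CPM. Basophil and mast cell markers summed to 135 to 198 CPM and 134 to 141 CPM, most of it Gata2 (126 and 122 CPM on average). Of the 4 tested, 2 fell, Prss34 from 14.2 to 4.48 CPM and Mcpt8 from 7.07 to 3.43 CPM. No listed marker was at 0 in every library. The part of any of these cells in the values of the members was not tested.

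The upstream windows of the members are shown because the element named CLEAR is the known link between TFEB and lysosomal genes. The 2 called members holding it moved in opposite directions. RefSeq windows on build GRCm38.p6 were matched for 31 of the 36 members, and the 250 bases before each start were searched on both strands for the core letters TCACGTG. These letters were in 6 of the 31 members, which is 19.4%, beside 5.76% of the 10135 tested genes with a window and 3.58% of all 27025 genes with one. The shorter E-box CACGTG, which lies inside the core, was in 25.8% of the members, 9.91% of the tested genes and 6.86% of all genes. The 6 members were Lamp1, with 4 sites, Mcoln1, Atg3 and Ctsd, with 2 each, and Atg7 and Ctsa, with 1 each. The stretches that carry the sites outside annotated exons follow for 5 of them, 5′ to 3′ on the strand of the gene, with the core on either strand in capitals. Lamp1 lies at chr8:13159069-13159160 on the plus strand, Mcoln1 at chr8:3500417-3500456 on the plus strand, Atg7 at chr6:114670933-114670999 on the plus strand before a start inside the gene, Atg3 at chr16:45158707-45158784 on the plus strand, and Ctsd at chr7:142388039-142388077 on the minus strand.
Lamp1: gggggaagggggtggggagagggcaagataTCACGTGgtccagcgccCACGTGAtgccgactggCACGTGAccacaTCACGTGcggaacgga
Mcoln1: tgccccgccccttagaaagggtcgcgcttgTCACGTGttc
Atg7: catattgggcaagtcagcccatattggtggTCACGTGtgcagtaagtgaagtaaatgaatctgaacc
Atg3: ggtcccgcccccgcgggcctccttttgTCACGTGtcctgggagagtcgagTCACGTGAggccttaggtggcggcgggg
Ctsd: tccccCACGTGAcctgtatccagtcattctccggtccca

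Of the 5 called members with a window, 2 held the element: Lamp1, which rose, and Mcoln1, which fell. The call of Mcoln1 held in only 6 of 17 alternative fits. These 2 members are too few to tell whether the element marks 1 direction. Of the other 4 holders, none passed the test: Atg7 had a log2 fold change of 0.30, Atg3 of 0.07, Ctsd of -0.03 and Ctsa of -0.09. By role, it was in 2 of 3 lysosomal membrane genes, 2 of 7 hydrolases, 2 of 4 conjugation genes and in no matched member of the other roles. A match is a description of letters and no evidence of binding.

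Among the genes that start autophagosome formation, Ulk1 fell while its paralog Ulk2 did not pass the test. Ulk1, the kinase at the head of the pathway, lies at chromosome 5, 110784488 to 110810097. It stood at 144, 151 and 151 CPM in saline replicates 1 to 3 and at 132, 129 and 135 CPM in carnosine replicates 1 to 3. Every carnosine library was below every saline library. The means were 149 ± 4.21 and 132 ± 2.80 CPM (SD, n = 3 each), which gave a log2 fold change of -0.17 with a standard error (SE) of 0.04 and an adjusted p of 0.0182 by edgeR's quasi-likelihood test. This call was lost in 8 of 17 alternative fits, among them DESeq2 (adjusted p = 0.0595), the fit with the replicate number as a block (edgeR adjusted p = 0.0522) and a fit corrected for length and GC (log2 fold change -0.10, edgeR adjusted p = 0.117). It was also lost without saline replicate 2 (edgeR adjusted p = 0.0627), saline replicate 3 (0.0609), carnosine replicate 1 (0.0588) or carnosine replicate 2 (0.0625).

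Ulk2, the second kinase of that family, averaged 72.7 ± 1.36 CPM in saline and 70.0 ± 2.21 CPM in carnosine, with overlapping groups and a 95% interval of the log2 fold change from -0.16 to 0.05. The log2 ratio of Ulk1 to Ulk2 was 1.003, 1.07 and 1.02 in the saline libraries and 0.86, 0.90 and 0.98 in the carnosine libraries. The ratio was lower by 0.12 on average and the groups did not overlap, with a two-sided exact permutation p of 0.1, the smallest that 3 against 3 libraries can give. The same p, 0.1, was obtained for each of the 5 ratios of related members computed, also after Benjamini-Hochberg adjustment, so no ratio could pass the threshold. In each of these pairs the groups were apart in the first member and overlapped in the second. The ratios therefore restate the values of their members and are no separate support, and other pairs were not computed. Atg13, the scaffold that ties the kinase to its complex, averaged 45.2 ± 2.73 CPM in saline and 50.2 ± 0.993 CPM in carnosine, with every carnosine library higher, an interval from 0.01 to 0.29 and an edgeR adjusted p of 0.124. Its value lay on the other side of 0 from that of Ulk1.

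Neither gene of the Beclin 1 complex passed edgeR's test, and neither was called by DESeq2 or limma-voom. At an unadjusted p under 0.05, 1 was lower, Atg14. Becn1, the lipid kinase complex's core subunit, was the more abundant of the pair and varied within both groups. It stood at 75.7, 102 and 107 CPM in saline and at 107, 100.4 and 69.7 CPM in carnosine. Saline replicate 1 and carnosine replicate 3 were low and the other 4 libraries were close to each other. The log2 fold change was -0.04 with an interval from -0.47 to 0.38, and it was 0.12 without carnosine replicate 3 and -0.18 without saline replicate 1. Exons of Cntd1 on the opposite strand cover 43.9% of the exon bases of Becn1, and Cntd1 stood at 3.37 to 5.24 CPM. How the counting used strand is not stated, so reads of the 2 genes may be shared. Atg14, the subunit that directs the complex to autophagy, averaged 27.5 ± 3.15 CPM in saline and 23.3 ± 1.74 CPM in carnosine, with overlapping groups and an edgeR adjusted p of 0.150.

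The 3 membrane supply genes showed 0 calls by edgeR, DESeq2 or limma-voom, and 0 at an unadjusted p under 0.05. Wipi2, which reads the lipid mark and recruits the conjugation machinery, stood at 130.1, 132 and 129 CPM in saline and at 123, 129 and 122 CPM in carnosine, with an interval of -0.15 to 0.02. Its groups overlapped near 129 CPM. Wipi1, a relative with a like role, averaged 11.2 CPM in both groups, with an interval from -0.22 to 0.23. Atg9a, the lipid scramblase of the vesicles that seed the membrane, averaged 38.6 ± 1.60 and 40.3 ± 2.45 CPM, with an interval from -0.10 to 0.22. Of these 3 intervals, that of Wipi1 holds the estimate for Ulk1 (-0.17).

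Of the 6 conjugation genes, 1 passed the test. Atg16l1, which sets the place of ATG8 conjugation, is on chromosome 1 at 87755870 to 87792428. It stood at 65.9, 61.5 and 60.3 CPM in saline and at 53.7, 52.8 and 46.6 CPM in carnosine, with no overlap. The means were 62.6 ± 2.96 and 51.0 ± 3.84 CPM (SD, n = 3 each), a log2 fold change of -0.29 (SE 0.07) and an edgeR adjusted p of 0.0266. Leaving out saline replicate 1, 2 or 3 raised the edgeR adjusted p to 0.0833, 0.067 or 0.0524, and leaving out carnosine replicate 2 or 3 raised it to 0.0536 or 0.0633. The call was also lost in limma on log2 FPKM with a pseudocount of 1 (adjusted p = 0.0621) and of 0.1 (adjusted p = 0.0619).

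Atg7, the E1-like enzyme of both conjugation reactions, had the largest positive estimate of the 36 but did not pass. It stood at 33.9, 31.6 and 39.6 CPM in saline and at 44.0, 42.2 and 43.6 CPM in carnosine. Each carnosine library was above each saline library, and saline replicate 3 was the nearest. The log2 fold change was 0.30 (95% interval 0.10 to 0.51) with an edgeR adjusted p of 0.0517. Without saline replicate 3 it was 0.40 with an adjusted p of 0.0164, with limma-voom the adjusted p was 0.0487, and with the length and GC correction it was 0.0369. Only these 3 of 17 alternative fits called Atg7. DESeq2 gave an adjusted p of 0.0751, and edgeR without saline replicate 1 gave 0.135. Atg3, the E2-like enzyme, had the highest FPKM (fragments scaled to gene length and library size) of the conjugation genes. It stood at 42.4, 42.5 and 41.8 CPM in saline and at 47.4, 43.5 and 41.8 CPM in carnosine, an overlap, with an interval from -0.08 to 0.21. Atg12, the ubiquitin-like partner of Atg5, averaged 54.2 ± 2.07 and 51.2 ± 1.36 CPM, and Atg5 itself 32.3 ± 1.07 and 29.8 ± 3.63 CPM, both with overlapping groups. Atg4b, the protease that primes ATG8 proteins, averaged 56.8 ± 1.05 CPM in saline and 53.6 ± 1.81 CPM in carnosine. Its groups did not overlap, but its edgeR adjusted p was 0.287. The values of these 3 genes lay below 0, at -0.08, -0.11 and -0.08 on the log2 scale.

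The 2 LC3 genes had lower values in carnosine, while the 3 GABARAP genes overlapped between groups. Map1lc3b, the LC3 gene with the higher level and the usual marker of autophagosomes, lies at chromosome 8, 121590361 to 121598760. It stood at 116, 121 and 114 CPM in saline and at 98.2, 103 and 90.8 CPM in carnosine. No carnosine library reached a saline one. The means were 117 ± 3.43 and 97.4 ± 6.19 CPM (SD, n = 3 each), a log2 fold change of -0.26 (SE 0.05) and an edgeR adjusted p of 0.016. The call held in 16 of 17 alternative fits and was lost without saline replicate 2 (edgeR adjusted p = 0.0557).

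Map1lc3a, the less abundant LC3 gene, stood at 14.9, 19.3 and 16.9 CPM in saline and at 13.4, 13.4 and 13.2 CPM in carnosine. The groups did not overlap, and the log2 fold change of -0.36 was the lowest of the 36 members. Its edgeR adjusted p was 0.0581, and 0.0348 without saline replicate 1. That was the only 1 of 17 alternative fits to call it, and DESeq2 gave an adjusted p of 0.181. Gabarapl1, with the highest level of the family, stood at 219, 223 and 193 CPM in saline and at 197, 187 and 231 CPM in carnosine. Its groups overlapped, and the 95% interval ran from -0.25 to 0.16. Gabarap averaged 78.5 ± 3.56 and 78.1 ± 2.80 CPM, with an interval from -0.13 to 0.11, and Gabarapl2 averaged 43.4 ± 3.42 and 45.5 ± 2.13 CPM, with an interval from -0.10 to 0.24. Summed, the LC3 genes went from 134 ± 5.28 to 111 ± 6.28 CPM and the GABARAP genes from 333 ± 11.4 to 329 ± 23.7 CPM. The log2 ratio of Map1lc3b to Gabarapl2 was 1.53, 1.48 and 1.28 in saline and 1.06, 1.26 and 0.98 in carnosine. It was lower by 0.33 in carnosine, with no overlap (two-sided exact permutation p = 0.1). Ratios to Gabarapl1, the most abundant of the family, and to Gabarap were not computed.

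Among the cargo receptors Sqstm1 fell. Sqstm1, which encodes p62, a receptor that binds ubiquitin and LC3, lies at chromosome 11, 50199366 to 50210827. It stood at 293, 293 and 303 CPM in saline and at 249, 236 and 254 CPM in carnosine. The gap between the groups was wider than the spread within either. The means were 296 ± 5.49 and 246 ± 9.24 CPM (SD, n = 3 each), 16.9% lower in carnosine, with a log2 fold change of -0.27 (SE 0.03) and an edgeR adjusted p of 0.00243, the smallest of the 36. All 17 alternative fits kept this call, with log2 fold changes from -0.29 to -0.23. Exons of Mrnip on the opposite strand cover 17.3% of those of Sqstm1, and Mrnip stood at 7.20 to 8.79 CPM.

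Nbr1, a receptor of like architecture, averaged 112 ± 4.15 CPM in saline and 108 ± 2.35 CPM in carnosine, with overlapping groups and an interval from -0.15 to 0.05. The log2 ratio of Sqstm1 to Nbr1 was 1.34, 1.44 and 1.45 in saline and 1.24, 1.10 and 1.24 in carnosine. It was lower by 0.22, with no overlap (two-sided exact permutation p = 0.1). Optn, a receptor for ubiquitin-tagged mitochondria and bacteria, averaged 9.77 ± 1.10 CPM in saline and 11.9 ± 0.424 CPM in carnosine. All 3 carnosine libraries were above the saline ones, with an interval from 0.03 to 0.54 and an edgeR adjusted p of 0.116. The sum of the 3 receptors went from 418 ± 7.28 to 366 ± 8.01 CPM.

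**Figure D2:**
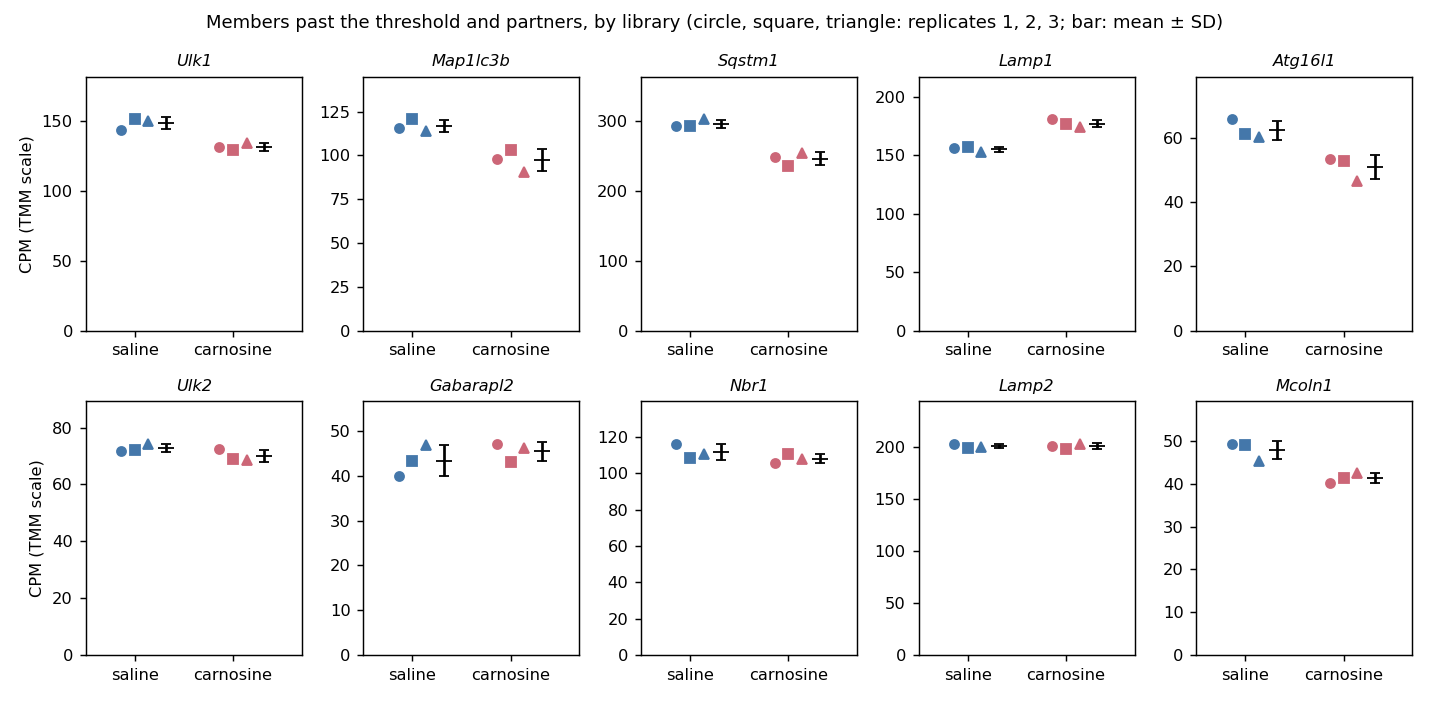
Level of the 6 called members and 4 related members (Ulk2, Gabarapl2, Nbr1, Lamp2) in CPM on the TMM scale, 1 symbol per library, with mean ± SD beside them (n = 3). The groups are apart in Ulk1, Map1lc3b, Sqstm1, Lamp1, Atg16l1 and Mcoln1, and overlap in the 4 related members.

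None of the 3 transcription factor genes passed edgeR's test, and 0 were called by DESeq2 or limma-voom. At an unadjusted p under 0.05, 1 was lower, Tfeb. Tfeb, the factor best known for lysosomal gene control, stood at 19.6, 20.1 and 19.0 CPM in saline and at 15.5, 16.1 and 17.3 CPM in carnosine. The groups did not overlap. The log2 fold change was -0.26 (95% interval -0.44 to -0.09) with an edgeR adjusted p of 0.0526, and the adjusted p was 0.0431 with upper-quartile scaling and 0.0492 with library totals only. Only these 2 of 17 alternative fits called it, and DESeq2 gave an adjusted p of 0.282. Tfe3, its relative, averaged 37.1 ± 3.22 and 36.6 ± 4.68 CPM, with an interval from -0.27 to 0.23. Mitf stood at 14.5, 5.73 and 14.6 CPM in saline and at 12.3, 11.5 and 12.3 CPM in carnosine. Saline replicate 2 was low and lay apart from the other 5 libraries. The log2 fold change was 0.04 (95% interval -0.67 to 0.75), and -0.27 without saline replicate 2 (edgeR adjusted p = 0.111), so the sign rests on that library.

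The lysosomal membrane held the member that rose and a member that fell. Lamp1, a heavily glycosylated protein that lines the membrane, is at chromosome 8, 13159161 to 13175338. It stood at 156, 157 and 153 CPM in saline and at 181, 177 and 174 CPM in carnosine. The lowest carnosine library was well above the highest saline library. The means were 155 ± 2.19 and 177 ± 3.32 CPM (SD, n = 3 each), 14.2% higher in carnosine, with a log2 fold change of 0.19 (SE 0.03) and an edgeR adjusted p of 0.00631. All 17 alternative fits kept the call, with log2 fold changes from 0.16 to 0.21.

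Lamp2, the related membrane protein needed for fusion and for chaperone-mediated autophagy, was nearly level. It averaged 200.2 ± 1.82 CPM in saline and 201 ± 2.49 CPM in carnosine, with an interval from -0.06 to 0.07, which does not hold the estimate for Lamp1. The log2 ratio of Lamp1 to Lamp2 was -0.38, -0.34 and -0.38 in saline and -0.15, -0.16 and -0.22 in carnosine. It was higher by 0.19, with no overlap (two-sided exact permutation p = 0.1). Mcoln1, the lysosomal calcium channel TRPML1, is at chromosome 8, 3500457 to 3515232. It stood at 49.4, 48.9 and 45.3 CPM in saline and at 40.2, 41.3 and 42.5 CPM in carnosine, with no overlap. The means were 47.9 ± 2.21 and 41.3 ± 1.12 CPM (SD, n = 3 each), a log2 fold change of -0.21 (SE 0.06) and an edgeR adjusted p of 0.0438, close to the threshold. Only 6 of 17 alternative fits kept this call: DESeq2 gave an adjusted p of 0.172, the replicate block in edgeR 0.103, and the edgeR fits without saline replicate 1, saline replicate 2 and carnosine replicates 1, 2 and 3 gave 0.121, 0.128, 0.116, 0.103 and 0.0779.

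None of the 8 hydrolase and activator genes passed edgeR's test, and 0 were called by DESeq2 or limma-voom. At an unadjusted p under 0.05, 3 were higher, Ctsb, Ctsz and Psap, a count without the share of all genes beside it. The median log2 fold change of the 8 was 0.00. Psap, the precursor of the saposins that help to degrade sphingolipids, was the most abundant member. It stood at 632, 614 and 626 CPM in saline and at 642, 648 and 663 CPM in carnosine. The groups did not overlap, but the difference was small, a log2 fold change of 0.06 (95% interval 0.01 to 0.11) with an edgeR adjusted p of 0.113, and of 0.09 with an adjusted p of 0.0323 under the length and GC correction. That correction was the only 1 of 17 alternative fits to call Psap. Ctsb, a cysteine cathepsin, averaged 184 ± 5.08 CPM in saline and 200.1 ± 10.8 CPM in carnosine, and Ctsz, an exopeptidase of the same family, 72.7 ± 3.33 and 79.3 ± 3.04 CPM. Both were higher in every carnosine library, with edgeR adjusted p-values of 0.103 and 0.148. Ctss, the cathepsin of antigen presenting cells, averaged 49.3 ± 2.51 and 44.4 ± 3.88 CPM, with an overlap and an interval from -0.33 to 0.03. The log2 ratio of Ctsb to Ctss was 1.799, 1.93 and 1.96 in saline and 2.07, 2.39 and 2.06 in carnosine, higher by 0.27 with no overlap (two-sided exact permutation p = 0.1).

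The remaining hydrolases overlapped between groups. Ctsa, the protective protein of neuraminidase, averaged 89.9 ± 3.74 and 84.6 ± 5.67 CPM. Ctsl, a cysteine endopeptidase, averaged 31.0 ± 1.796 and 31.5 ± 0.990 CPM, and Hexa, the alpha subunit of hexosaminidase A, 89.4 ± 1.43 and 86.3 ± 3.63 CPM. Ctsd, the main aspartic protease, stood at 213, 282 and 218 CPM in saline and at 215, 223 and 260.3 CPM in carnosine. Saline replicate 2 and carnosine replicate 3 were high, and the interval of the log2 fold change ran from -0.30 to 0.25. Gm49369, a gene on the same strand, shares 34.4% of the exon bases of Ctsd, and it was at 0 counts in exactly those 2 libraries, where 3 counts would be 0.291 and 0.226 CPM. In the other 4 libraries it stood at 1.54, 2.81, 5.06 and 1.15 CPM. Reads could be split between these genes, and the part of this in the Ctsd values was not tested. The 7 hydrolases and Psap summed to 1378 ± 34.0 CPM in saline and 1410.1 ± 34.8 CPM in carnosine.

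**Figure D3:**
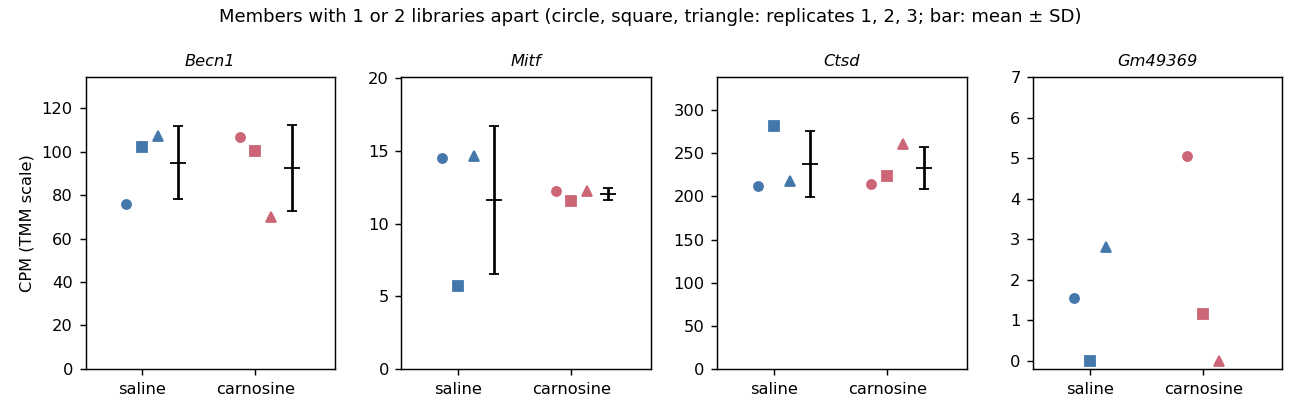
CPM per library of Becn1, Mitf and Ctsd, and of Gm49369, which shares exons with Ctsd, with mean ± SD for the 3 members (n = 3). Saline replicate 1 and carnosine replicate 3 are low in Becn1, saline replicate 2 is low in Mitf, and the 2 libraries that are high in Ctsd are those at 0 in Gm49369.

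The members differed far more in level than between groups. Per kilobase of merged exons, Psap was first at 232 CPM per kb over all 6 libraries, followed by Gabarapl1 at 103, Ctsd at 100.04, Sqstm1 at 80.9 and Lamp1 at 62.2 CPM per kb. Gabarapl1 and Ctsd overlapped in their libraries, so their order is not settled. At the low end were Tfeb at 3.16, Optn at 2.89, Wipi1 at 2.54 and Mitf at 1.91 CPM per kb. The plot of levels per length shows that many neighbours in the order overlapped between libraries. This scale was used beside FPKM because the lengths behind the deposited FPKM equal the sum of distinct exons, overlapping ones counted repeatedly, within 1 base for 97.6% of 11942 genes with over 300 counts. For the members that length was 1 to 2.23 times the merged length, with a median of 1.47, so FPKM sits lower for genes with many isoforms. By FPKM the order at the top was Psap at 159, Ctsd at 65.1, Gabarapl1 at 65.0 and Lamp1 at 58.3.

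**Figure D4:**
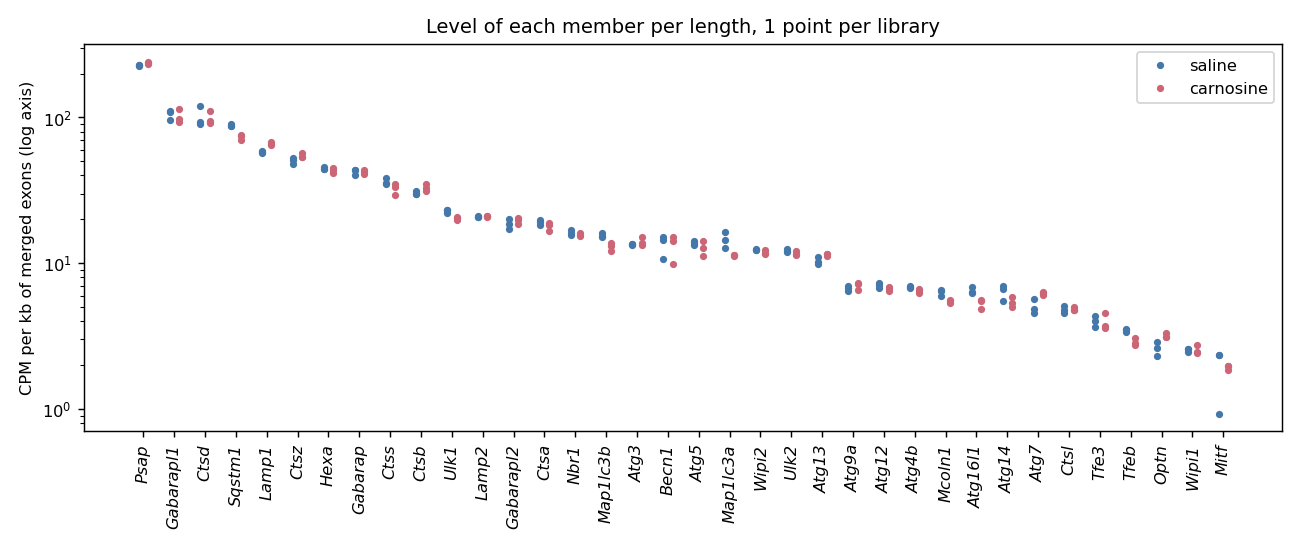
CPM per kilobase of merged exons for each member on a log axis, ordered by the mean over 6 libraries, 1 point per library. Psap is highest and Mitf lowest, and the gaps between saline and carnosine are small beside the range between genes.

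The other genes of the pathway, 174 in 6 lists, were read beside the members. Of the 170 tested, 11 rose and 15 fell, 15.3% in all, again near the 17.9% of all genes. In the 26 other autophagosome genes tested, none rose and 2 fell, 7.69% in all, with a median log2 fold change of -0.07. Plekhm1, an adaptor for fusion of autophagosomes with lysosomes, fell from 43.3 ± 2.21 to 35.2 ± 1.48 CPM (edgeR adjusted p = 0.019). Pik3r4, the regulatory subunit of the lipid kinase that works with Becn1, fell from 51.4 ± 1.04 to 43.8 ± 1.53 CPM (edgeR adjusted p = 0.023). At an unadjusted p under 0.05, 0 of this list were higher and 5 lower, and DESeq2 called 0 higher and 1 lower, limma-voom 0 and 2. The fall of Plekhm1 was called in 12 of 17 alternative fits and that of Pik3r4 in 8. In the 19 other receptors 1 rose and none fell, 5.26% in all beside 17.9% of all genes, with a median of -0.04. The gene that rose was Phb2, a receptor on the inner membrane of mitochondria, from 184 ± 7.48 to 208 ± 3.60 CPM (edgeR adjusted p = 0.0187). At an unadjusted p under 0.05, 5 receptors were higher and 3 lower, while DESeq2 and limma-voom each called 1 higher and 0 lower. The unadjusted counts of both lists have no share of all genes beside them and are not a result about the lists.

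Of 44 other hydrolases and activators tested, 6 rose and 4 fell, with a median of 0.04. That is 13.6% higher and 9.09% lower beside 9.51% and 8.39% of all genes, so the counts are not a result about the list. Gusb, beta-glucuronidase, rose from 98.9 ± 3.69 to 122 ± 2.50 CPM (edgeR adjusted p = 0.00314). Galc, which degrades galactosylceramide, rose from 30.05 ± 4.21 to 44.9 ± 1.67 CPM (edgeR adjusted p = 0.00899), and Ctse, an aspartic protease, rose from 26.6 ± 1.91 to 34.5 ± 0.941 CPM (edgeR adjusted p = 0.0126). Ctsg, a serine protease of neutrophil granules, fell from 54.7 ± 2.33 to 37.1 ± 3.67 CPM (edgeR adjusted p = 0.00374). Ctsg is also on the neutrophil marker list whose sum was lower in carnosine and whose mature markers were low in both groups. These 4 calls held in all 17 alternative fits, while over the list DESeq2 called 6 higher and 2 lower.

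In the 28 lysosomal membrane and transport genes, 2 rose and 5 fell, 7.14% and 17.9% of the list beside 9.51% and 8.39% of all genes, with a median of -0.05. Cln3, a membrane protein mutated in Batten disease, fell from 43.2 ± 2.08 to 35.1 ± 0.327 CPM (edgeR adjusted p = 0.0138). Laptm5, a lysosomal protein of blood cells, fell from 718 ± 2.64 to 669.7 ± 8.42 CPM (edgeR adjusted p = 0.0139), and Mfsd12, a lysosomal transporter, fell from 78.8 ± 2.91 to 67.9 ± 1.62 CPM (edgeR adjusted p = 0.0205). Scarb2, which sorts glucocerebrosidase to the lysosome, rose from 90.5 ± 3.35 to 104 ± 3.64 CPM (edgeR adjusted p = 0.0229), in the direction of Lamp1. DESeq2 called 1 higher and 1 lower in this list, and of 17 alternative fits Cln3 was called in 16, Laptm5 in 14, Mfsd12 in 10 and Scarb2 in 12.

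Of 17 subunits of the V-ATPase, the proton pump of the lysosome, 1 rose and 2 fell, with a median of 0.03. These calls are 17.6% of the subunits, the background being 17.9%, so the count is not a result about the pump. Tcirg1, the a3 subunit of the membrane part, fell from 196 ± 5.06 to 152 ± 2.66 CPM, with a log2 fold change of -0.37 (SE 0.03) and an edgeR adjusted p of 0.000447, kept in all 17 alternative fits. Atp6v0c, the ring subunit, fell from 97.3 ± 2.75 to 79.4 ± 7.34 CPM (edgeR adjusted p = 0.0256). Atp6v1a, the catalytic subunit, rose from 92.7 ± 0.995 to 105 ± 3.07 CPM (edgeR adjusted p = 0.0212), and each of these last 2 calls held in 11 of 17 alternative fits. Among 36 nutrient signalling genes 1 rose and 2 fell, 8.33% in all, with a median of 0.01. Zkscan3, a repressor of autophagy genes, fell from 90.7 ± 12.7 to 60.2 ± 6.30 CPM (edgeR adjusted p = 0.013). Of the AMPK subunits, Prkab1 fell from 70.3 ± 3.50 to 56.6 ± 1.45 CPM (edgeR adjusted p = 0.00805) and Prkag1 rose from 58.5 ± 2.06 to 67.9 ± 2.71 CPM (edgeR adjusted p = 0.0296). Prkag1 was called in 11 of 17 alternative fits, and the other 2 in all 17.

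**Figure D5:**
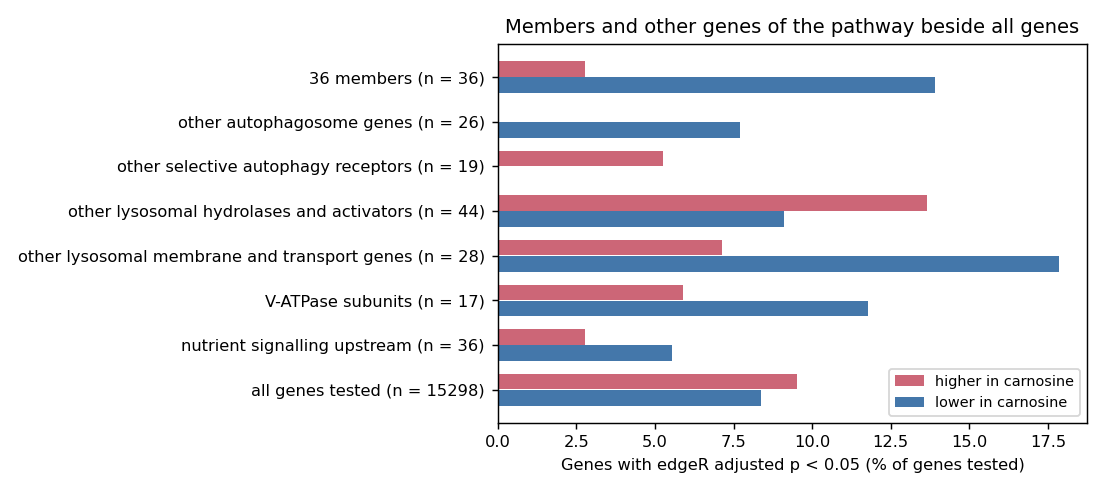
Percent of tested genes with an edgeR adjusted p under 0.05, higher (red) or lower (blue) in carnosine, for the 36 members, each other list of the pathway and all 15298 genes tested. All genes stand at 9.51% higher and 8.39% lower, and the lists are small, so 1 gene moves a bar by several percent.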

How the data were processed

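Poly-A RNA was sequenced as stranded paired-end libraries, per the labels' protocols. Per the submitters' processing notes, CASAVA 1.8, HISAT2, StringTie and edgeR were used with GRCm38. No role is given for these tools, nor a strand setting or a rule for multi-mapping reads. The authors deposited raw counts and FPKM for 55487 genes, per the file headers.

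Counts were scaled by TMM, filtered with filterByExpr and tested with edgeR 4.0.16 (R 4.3.3) by the two-sided quasi-likelihood test, with Benjamini-Hochberg adjustment over 15298 genes and a threshold of 0.05. Levels are CPM on the TMM scale, mean ± SD. A count of 3 was 0.226 to 0.291 CPM, a limit that covers counting error only. Exon lengths and overlaps came from GENCODE.

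The members and lists were chosen with earlier results of these data known. Called members, and in each role the member with the highest FPKM, were given in every library. From each other list, up to 4 called genes with the smallest p were named. The labels do not say that a replicate number marks a shared animal or day, so the main fit held no block. Same-numbered libraries also did not deviate together (correlations -0.06, -0.03 and -0.0007). Alternatives were DESeq2 1.42.0, limma 3.58.1 (voom, and log2 FPKM), other scalings and filters, a replicate block, a length and GC correction, and leaving out each library. Protein sequences were not used here.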

Additional observations from a re-analysis of the deposited data

How the results depend on the processing

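Of 612 recomputed log2 fold changes of the 36 members, from 17 alternative fits, 578 kept their side of the threshold, 27 lost a call, 7 gained one and 0 called values changed sign. Of the 6 calls, Sqstm1 and Lamp1 held in all 17 fits, Map1lc3b in 16, Atg16l1 in 10, Ulk1 in 9 and Mcoln1 in 6. The 5 members called lower became 3 with DESeq2, with no filter, with the replicate block, with log2 FPKM at either pseudocount and with the length and GC correction, 1 at an adjusted p under 0.01, and 1 to 4 when single libraries were left out. They became 6, with Tfeb added, under upper-quartile scaling and under library totals only, and 7, with Tfeb and Map1lc3a added, at an adjusted p under 0.1. The 1 member called higher became 2 with limma-voom, 3 with the length and GC correction, 2 at an adjusted p under 0.1, and 1 to 2 when single libraries were left out. Over all genes, 1455 higher and 1283 lower became 1022 and 812 with DESeq2, 946 and 810 with the replicate block, 1289 and 1402 with upper-quartile scaling, where lower calls outnumbered higher ones (47.9% higher, against 53.1%), and 932 to 1009 and 801 to 883 when single libraries were left out. At an adjusted p under 0.01, all genes called higher numbered 603 and all genes called lower 504, and under 0.1 they numbered 2065 and 1926. The block had no support in the labels or in the correlations of same-numbered libraries. The cause of the lost calls was not tested. Leaving out a library changes both which libraries are used and how many, and these cannot be told apart.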
